A study of Mus musculus with 4 samples.

Results

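The genes of voltage-gated sodium channels (Scn), voltage-gated calcium channels (Cacn) and hyperpolarization-activated pacemaker channels (Hcn) were examined in mouse cardiomyocytes after pressure overload. Members are defined by symbol, as every gene whose symbol begins with Scn or Hcn followed by a digit, or with Cacn. This gave 44 of the 22322 genes measured. Results are given for 41 of them, of which 22 had enough counts to be tested. RNA sequencing was carried out on cardiomyocytes from 2 sham-operated mice and 2 mice with transverse aortic constriction (TAC), in which a band around the aortic arch raises the pressure against which the left ventricle ejects. The study's methods state that the mice were male, were operated on at 2 months of age and had echocardiography 14 weeks after surgery. They describe the mice whose hearts were digested as 14-week-old, so the time from surgery to RNA is not certain. The sources used here do not name their strain or genotype. Myocytes were freed by enzyme perfusion of the isolated heart (the Langendorff method), and 1 library was made from part of the myocytes of 1 mouse. Sham animals went through surgery without the constriction.

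Sodium channels carry the inward current of the action potential upstroke in working myocytes. Calcium channels of the L type sustain the plateau and trigger calcium release from the sarcoplasmic reticulum, which starts contraction. Pacemaker channels open on hyperpolarization and carry an inward current that drives spontaneous firing in nodal cells, and their genes are also expressed at low levels in ventricular muscle. Each sodium or calcium channel has a large pore-forming subunit that selects the ion and senses voltage, and smaller auxiliary subunits (beta, alpha2delta and gamma) that set trafficking and gating.

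The 4 libraries held 24237777 to 32118323 counts, and levels are given as CPM, counts scaled to a common library size by TMM. The 10 cardiomyocyte markers summed to 60200 to 68900 CPM and included Myh6 at 23200 CPM or more in each library. Markers of other cell types were present in all libraries. In sham 1, sham 2, TAC 1 and TAC 2, respectively, the 10 fibroblast genes summed to 508, 353, 192 and 272 CPM, the 10 endothelial genes to 564, 457, 270 and 377 CPM, and the 10 macrophage genes to 134, 68.3, 35.5 and 68.5 CPM. Atrial genes stood apart in sham 1, where the 6 listed genes summed to 96 CPM against 15.8 CPM in sham 2, 37 CPM in TAC 1 and 49.8 CPM in TAC 2. The mitochondrial share of the counts was 47.42% in TAC 1, against 39.84% to 40.85% in the other libraries.

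Among the 22 tested channel genes reported, 2 passed the edgeR quasi-likelihood test at an adjusted p under 0.05, which is 9.09% against 5.01% of the 12499 genes tested. Hcn2, a pacemaker channel, and Cacng6, a calcium channel gamma subunit, were lower in TAC, 2 genes against a background of 2.43% called lower. Of these 22 genes 0 were called higher, where the background was 2.58%. The split of all called genes depended on the scaling, with 322 higher and 304 lower by TMM, 105 and 423 by total counts, and 188 and 450 by total counts without mitochondrial genes. At an unadjusted p under 0.05 there were 8 of 22, 1 higher (Cacna1s) and 7 lower, against 27.5% of all genes tested. DESeq2 called 3 of them, Cacng6, Hcn2 and Scn7a, and gave no adjusted p for 6 with low counts. The calls rested on few animals. Leaving out 1 library at a time left 1 call without sham 1 (Scn4a), 1 without sham 2 (Cacna1h), 0 without TAC 1 and 3 without TAC 2 (Hcn2, Scn4b and Scn7a), so that Cacng6 missed the threshold whichever library was left out.

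Most of the channel genes reported lay lower in TAC. The log2 fold change was below 0 for 20 of 22 and above 0 for 2 (Cacna1s and Cacnb1), with a median of -0.34, whereas 50.9% of all genes tested lay below 0 and their median was -0.01. Both TAC libraries were below both sham libraries in 14 channel genes and above them in 2, together 72.7%, against 30.3%, 29.8% and 60.1% of all genes tested. These shares differed with abundance. Of the 10 channel genes whose mean reached 5 CPM, 9 were lower with a median log2 fold change of -0.18, while 41.8% of all genes at that level were lower with a median of 0.05. Of 12 channel genes under 5 CPM, 11 were lower with a median of -0.66, while 70.1% of all such genes were lower with a median of -0.26. Scaling by total counts moved the median of all genes to -0.20 and that of the channel genes to -0.53, with 20 lower and 2 higher. With sham 1, sham 2 or TAC 1 left out 18 were lower and 4 higher, and with TAC 2 left out 19 were lower and 3 higher.

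**Figure D1:**
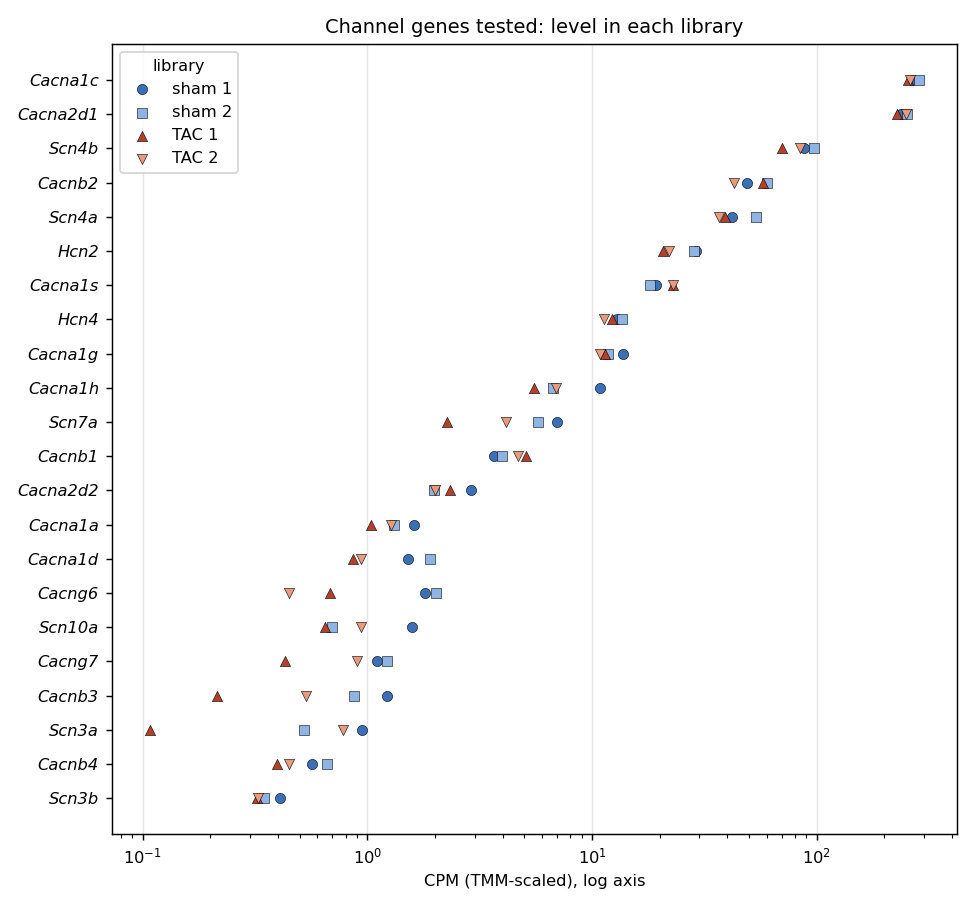
Level of each tested channel gene reported, in each library, in TMM-scaled CPM on a log axis, with 1 symbol per library and genes in order of mean level. Levels run from 285 CPM for Cacna1c in sham 2 down to 0.108 CPM for Scn3a in TAC 1, and libraries of the same group spread widely for several genes near or under 1 CPM, such as Scn3a and Cacnb3.

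Levels of different genes were compared per length, with the FPKM values deposited by the authors. Of the genes reported, the order in sham was Cacna2d1 at 38.5 FPKM ± 1.36 (SD, n = 2), Cacna1c at 34.6 ± 1.15, Scn4b at 19.7 ± 0.65, Cacnb2 at 18.2 ± 2.75, Hcn2 at 9.62 FPKM and Scn4a at 7.73 FPKM. The ranges of Scn4b and Cacnb2 overlapped and those of the other neighbours did not. In TAC the levels were 29.1 and 36.4 FPKM for Cacna2d1, 26.5 and 30.6 for Cacna1c, 5.61 and 6.93 for Hcn2, and 5.12 and 5.64 for Scn4a. The ranges of each of these pairs of neighbours overlapped, but within each TAC library the order of the pair was as in sham. For Scn4b and Cacnb2 the order differed between the TAC libraries, at 12.2 against 15.6 FPKM in TAC 1 and 17.1 against 13.5 FPKM in TAC 2.

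Among sodium channel pore genes, Scn4a encodes the pore of skeletal muscle sodium channels. Its levels were 42.1 and 53.7 CPM in sham and 38.9 and 36.9 CPM in TAC, and the difference was -0.34 ± 0.12 on the log2 scale (edgeR adjusted p = 0.131). The groups did not overlap, with sham 2 the highest library and sham 1 close to TAC, and the value depended on the sham library kept. It was -0.50 without sham 1 (adjusted p = 0.0247) and -0.15 without sham 2 (adjusted p = 0.54).

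Scn7a encodes Nax, a sodium-sensing relative of the voltage-gated pores that is known from glia and other non-excitable cells. It was counted at 6.98 and 5.73 CPM in sham and at 2.26 and 4.13 CPM in TAC. Sham was higher throughout, and the log2 fold change of -1.0 ± 0.28 did not pass the test (edgeR adjusted p = 0.0814). The value depended on TAC 1, since it was -0.62 without TAC 1 and -1.49 without TAC 2, where the adjusted p was 0.00908. DESeq2 gave an adjusted p of 0.0393 on all libraries. The libraries stood in the same order, from sham 1 down to TAC 1, as the summed fibroblast and endothelial markers given above. The Schwann and neuronal list summed to 11.2, 10.3, 8.68 and 9.49 CPM in sham 1, sham 2, TAC 1 and TAC 2, with its markers S100b and Sox10 at 0.382 CPM or less. What part these cells have in the Scn7a difference was not tested, and in bulk RNA fewer cells of a type and less RNA per cell cannot be told apart.

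Scn10a and Scn3a, pores best known from sensory and central neurons, had low counts. Scn10a was at 1.58 and 0.695 CPM in sham and at 0.646 and 0.941 CPM in TAC, and its groups overlapped. Only sham 1 was high, and without it the log2 fold change of Scn10a turned from -0.54 to 0.18. Sham 1 was the highest library for the atrial, fibroblast, endothelial and macrophage lists and for the Schwann and neuronal list. The part of such cells in the Scn10a values was not tested. Scn3a ranged from 3 to 30 counts, with overlapping groups and a log2 fold change of -0.78 ± 0.76 that turned to 0.07 without TAC 1.

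Of the sodium channel beta genes reported, Scn4b encodes beta4, a subunit linked by a disulfide bond to the pore. It was measured at 87.5 and 96.8 CPM in sham and at 70 and 84.3 CPM in TAC (log2 fold change -0.26 ± 0.10, edgeR adjusted p = 0.167). The difference from sham was larger in TAC 1. It was -0.39 without TAC 2 (adjusted p = 0.0472) and -0.13 without TAC 1 (adjusted p = 0.574). Scn3b, the gene of beta3, had only 8 to 13 counts and a log2 fold change of -0.22 ± 0.52.

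The pores of L-type calcium channels showed no called difference. Cacna1c encodes Cav1.2, the main ventricular L-type pore, and was at 266 and 285 CPM in sham and at 254 and 261 CPM in TAC. Both TAC libraries were lower, at -0.10 ± 0.07 on the log2 scale (edgeR adjusted p = 0.429). The log2 fold change of Cacna1c was -0.28 by total counts (edgeR adjusted p = 0.206). Its deposited FPKM were 33.8 and 35.4 in sham and 26.5 and 30.6 in TAC. Cacna1s, the pore of the skeletal muscle L-type channel, was at 19.3 and 18.1 CPM in sham and at 22.9 and 23 CPM in TAC. On this scale TAC lay above sham, and the log2 fold change of 0.29 ± 0.10 did not pass (edgeR adjusted p = 0.108). It was 0.11 by total counts (adjusted p = 0.725), and the deposited FPKM overlapped, at 3.47 and 3.09 in sham and 3.27 and 3.80 in TAC. An antisense gene shares exon bases with Cacna1s, and without known use of strand reads of the pair cannot be told apart. The same limit holds for Cacna1a, Cacna1d, Cacna1h, Cacna2d2, Cacnb1, Cacnb2 and Cacnb4, which also share exon bases with a gene on the opposite strand. The FPKM of Cacna1s was 10.3 and 8.72 per 100 of Cacna1c in sham and 12.4 in each TAC library. Ratios and shares within a library do not depend on library scaling. With 2 libraries a group an exact permutation test cannot reach 0.05, and they are given as a description.

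Cacna1d encodes Cav1.3, the L-type pore of nodal and atrial cells. It was at 1.52 and 1.91 CPM in sham and at 0.861 and 0.941 CPM in TAC, with no overlap (log2 fold change -0.92 ± 0.33, edgeR adjusted p = 0.132). Sham 1, with the most atrial RNA, was the lower of the sham libraries, and the part of atrial cells in the difference was not tested. Cacna1d shares exon bases with Chdh, and its deposited counts were not whole.

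The T-type pores, which open at low voltages, were an order of magnitude below Cacna1c. Cacna1g, for Cav3.1, was at 13.7 and 11.8 CPM in sham and at 11.4 and 10.8 CPM in TAC (log2 fold change -0.20 ± 0.13, edgeR adjusted p = 0.352). Cacna1h, for Cav3.2, was at 10.9 and 6.67 CPM in sham and at 5.49 and 6.91 CPM in TAC. Its groups overlapped, because only sham 1 was high. Of the T-type FPKM, Cacna1g held 53.4% and 64.4% in sham and 68% and 61.1% in TAC, which overlapped as well. The log2 fold change of Cacna1h was -0.51 ± 0.25 with all libraries, -0.11 without sham 1 and -0.81 without sham 2, where the adjusted p was 0.0476. In sham 1 the atrial markers Myl7 and Myl4 were at 25.8 and 36.7 CPM, against 1.32 and 3.3 CPM in sham 2. Sham 1 was also the highest library for the summed fibroblast, endothelial and macrophage markers. The part of any of these cells in the Cacna1h values was not tested. Of the remaining pore genes only Cacna1a, the neuronal P/Q-type pore, was tested, at 1.61 and 1.32 CPM in sham and 1.04 and 1.27 CPM in TAC (log2 fold change -0.35 ± 0.33).

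The alpha2delta and beta subunits escort calcium channel pores to the membrane. Cacna2d1, which made up 98.2% to 98.8% of the alpha2delta FPKM, was at 236 and 253 CPM in sham and at 227 and 249 CPM in TAC. These CPM values overlapped, with a log2 fold change of -0.04 ± 0.08. It was -0.22 by total counts (adjusted p = 0.351), and the deposited FPKM, at 37.6 and 39.5 in sham and 29.1 and 36.4 in TAC, did not overlap. Cacna2d2 had 49 to 91 counts and overlapping groups (log2 fold change -0.16 ± 0.28).

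Among the calcium channel beta genes, Cacnb2, the main cardiac form, was at 48.9 and 59.8 CPM in sham and at 57.8 and 43 CPM in TAC. Each group had a high and a low library, and the log2 fold change was -0.11 ± 0.15. It was -0.31 by total counts (adjusted p = 0.202), and the deposited FPKM, at 16.2 and 20.1 in sham and 15.6 and 13.5 in TAC, did not overlap. Cacnb1, known from the skeletal muscle channel, was at 3.67 and 3.96 CPM in sham and at 5.06 and 4.66 CPM in TAC (0.35 ± 0.18, edgeR adjusted p = 0.254), and the difference was 0.16 by total counts (adjusted p = 0.724). The share of Cacnb1 in the beta FPKM was 9.53% and 8.22% in sham and 11.9% and 13.9% in TAC, with no overlap. Cacnb3 was counted 39 and 25 times in sham and 6 and 13 times in TAC (log2 fold change -1.51 ± 0.52, edgeR adjusted p = 0.12), and the value was -0.98 without TAC 1 and -2.27 without TAC 2. Its libraries stood in the same order as the summed fibroblast and endothelial markers, and the part of such cells was not tested. Cacnb4 had 11 to 19 counts (log2 fold change -0.54 ± 0.46).

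**Figure D2:**
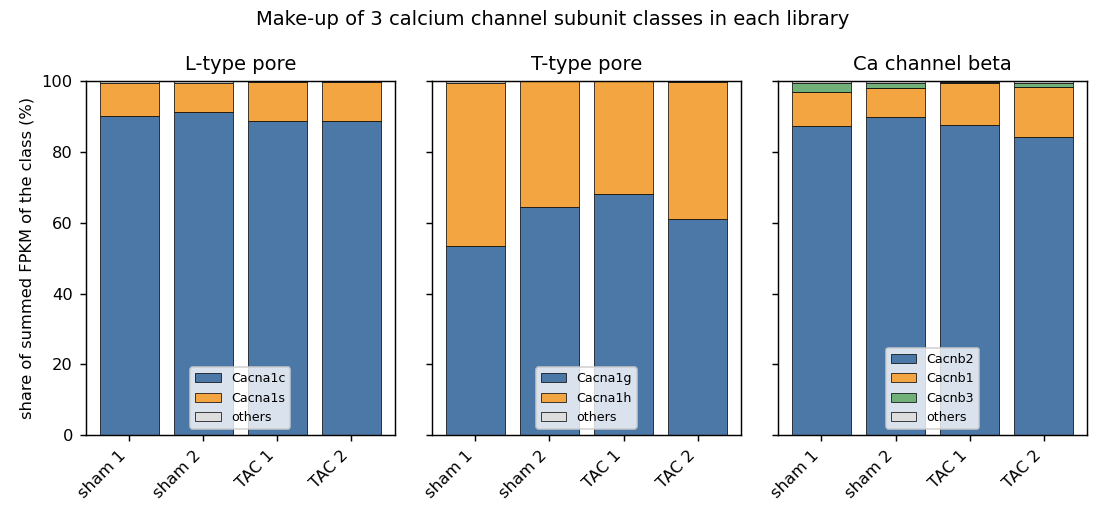
Share of each gene in the summed FPKM of its subunit class, in percent and stacked from 0 to 100, for each library and 3 classes of calcium channel subunits. Cacna1s takes 7.97% to 9.25% of the L-type pore class in sham and 11% in each TAC library, and Cacnb1 takes 8.22% to 9.53% of the beta class in sham and 11.9% to 13.9% in TAC.

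Gamma subunits are tetraspan membrane proteins, and Cacng6 encodes gamma6, a subunit of the group found with muscle calcium channels. The gene lies at chr7:3424195-3435667 on the plus strand of mm10, next to Cacng8 and Cacng7. Cacng6 was counted 57 and 58 times in sham and 19 and 11 times in TAC, which is 1.8 and 2.02 CPM against 0.681 and 0.45 CPM. The fall was by a factor of 3.33 (log2 fold change -1.73 ± 0.37, edgeR adjusted p = 0.0444). With a library left out the log2 fold change was between -2.07 and -1.48 and the adjusted p between 0.0583 and 0.0843, so the call, but not the direction, rests on all 4 libraries. Its neighbour Cacng7 was at 1.11 and 1.22 CPM in sham and at 0.43 and 0.9 CPM in TAC (log2 fold change -0.82 ± 0.44, edgeR adjusted p = 0.274). Its value was -0.37 without TAC 1 and -1.42 without TAC 2. Cacng8, which lies between them, had no count in any library.

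**Figure D3:**
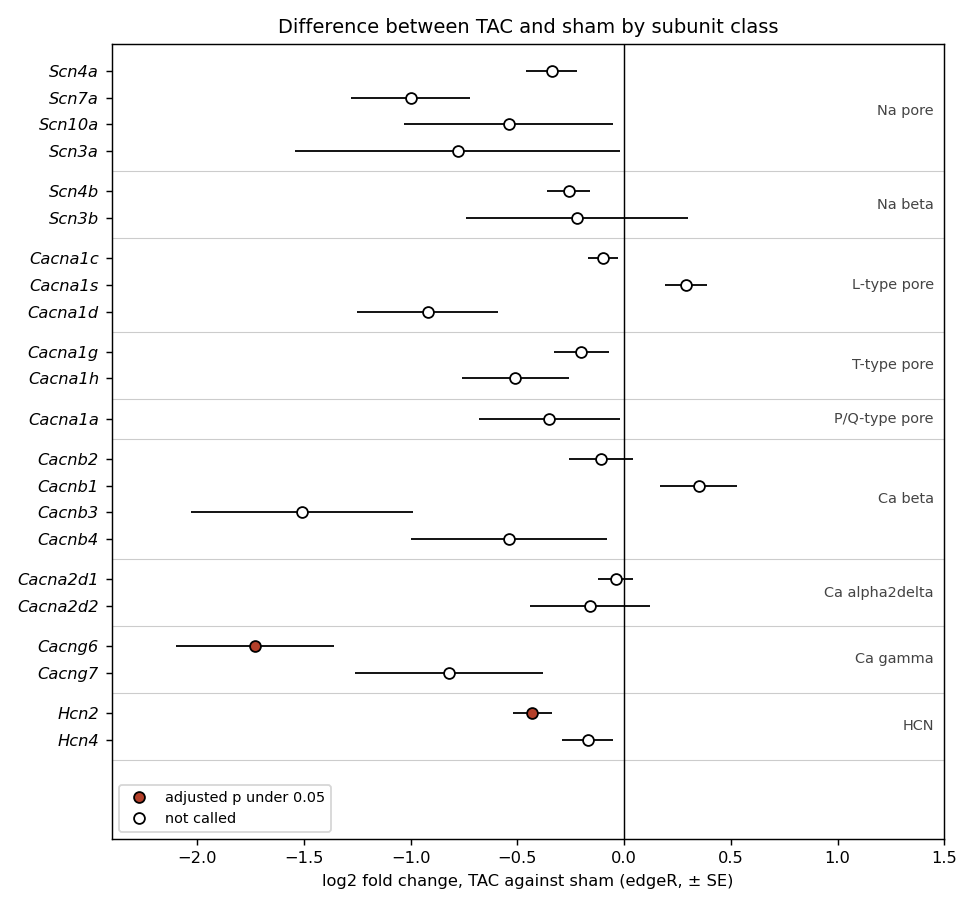
Log2 fold change of each tested channel gene reported, TAC against sham, with its standard error from edgeR, grouped by subunit class and ordered within a class by mean level. Filled points are the 2 genes with an adjusted p under 0.05 (Hcn2 at -0.43 and Cacng6 at -1.73), and 20 of 22 points lie below 0.

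Of the pacemaker channel genes reported, Hcn2 was lower in TAC and Hcn4 did not pass the test. Hcn2 is the main ventricular form and lies at chr10:79716634-79736108 on the plus strand of mm10, with no exon shared with another annotated gene. It was at 29 and 28.5 CPM in sham, from 918 and 820 counts, and at 20.7 and 22 CPM in TAC, from 576 and 537 counts. The libraries of a group lay close together and the groups stood apart, with a fall by a factor of 1.35 (log2 fold change -0.43 ± 0.09, edgeR adjusted p = 0.0443). Scaling by total counts gave an adjusted p of 0.0474. The call was lost without sham 1 (0.118), sham 2 (0.0869) or TAC 1 (0.136) and held without TAC 2 (0.0356), while the log2 fold change in these fits was between -0.47 and -0.39. By limma on FPKM the difference was -0.62 with an adjusted p of 0.0967. From sham 1 down to TAC 1, the Hcn2 libraries stood in the same order as the summed fibroblast and endothelial markers. The part of such cells in the Hcn2 difference was not tested.

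Hcn4, the main form of the sinus node, was at 12.9 and 13.6 CPM in sham and at 12.3 and 11.3 CPM in TAC (log2 fold change -0.17 ± 0.12, edgeR adjusted p = 0.392). Per 100 FPKM of Hcn4 there were 431 and 401 FPKM of Hcn2 in sham and 321 and 373 in TAC, so that Hcn2 was lower in TAC relative to Hcn4 as well. The conduction system markers summed to 38.9, 30.6, 35 and 35.5 CPM in sham 1, sham 2, TAC 1 and TAC 2, of which Smoc2 alone made up 27.2, 21.8, 28.9 and 27.5 CPM (log2 fold change 0.20 ± 0.12). Cntn2 was at 4.11 and 1.81 CPM in sham and at 1.11 and 2.86 CPM in TAC, with Isl1 at 0.0717 CPM or less and Shox2 at 0.253 CPM or less. Tbx3, a T-box repressor of the conduction system, was at 6.95 and 6.78 CPM in sham and at 4.73 and 4.91 CPM in TAC (log2 fold change -0.51 ± 0.16, edgeR adjusted p = 0.094). The part of such cells in the pacemaker channel values was not tested.

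The sequences before the starts of Hcn2 and Hcn4 are shown because 1 of these pacemaker channel genes was called and 1 was not. They are the 250 bases before the RefSeq start on GRCm38.p6, at chr10:79716384-79716633 and chr9:58822699-58822948, each on the plus strand, and capitals mark the GC box, GGGCGG or its reverse complement.
Hcn2: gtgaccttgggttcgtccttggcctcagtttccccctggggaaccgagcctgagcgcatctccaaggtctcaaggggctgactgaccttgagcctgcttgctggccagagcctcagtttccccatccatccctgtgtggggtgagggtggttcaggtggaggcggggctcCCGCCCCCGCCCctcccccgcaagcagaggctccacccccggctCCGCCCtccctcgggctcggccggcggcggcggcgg
Hcn4: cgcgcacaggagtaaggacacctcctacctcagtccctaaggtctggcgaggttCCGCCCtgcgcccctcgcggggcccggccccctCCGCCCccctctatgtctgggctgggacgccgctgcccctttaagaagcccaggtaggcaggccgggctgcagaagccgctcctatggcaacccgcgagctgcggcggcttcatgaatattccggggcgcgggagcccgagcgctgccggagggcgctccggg
The Hcn2 window held 3 GC boxes, which begin at -80, -74 and -36 relative to the RefSeq start, and the Hcn4 window held 2, at -196 and -163. In GENCODE, Hcn2 starts at chr10:79716634, directly after its window. Hcn4 starts in GENCODE at chr9:58823412, further downstream, so its positions hold for the RefSeq start only. Their GC contents were 70.4% and 71.2%. Of all 32851 windows of this length, 32.7% held a GC box on either strand, and among the 17 tested channel genes reported that had a window 13 did. The muscle MCAT element, CATTCC on either strand, was in neither of these windows, in 12.6% of all windows, and in 6 of the 17. These matches are a description, and the motifs were chosen after the expression values were seen.

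The other 19 channel genes reported were not tested. No count was found in any library for Cacna1f, Cacna2d4, Cacng1, Cacng3, Cacng4 and Cacng8, which allows a level of up to 0.0948 to 0.123 CPM per library at 3 counts. The other 13 had at most 12 counts in a library. These were Cacna2d3, with 12, 8, 9 and 6 counts in sham 1, sham 2, TAC 1 and TAC 2, and Cacna1b, Cacna1e, Cacna1i, Cacng2, Cacng5, Hcn3, Scn1a, Scn2a, Scn2b, Scn8a, Scn9a and Scn11a, with 0 to 4 counts each. Most of these are neuronal or skeletal muscle forms. Differences among them were not detectable at this depth.

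**Figure D4:**
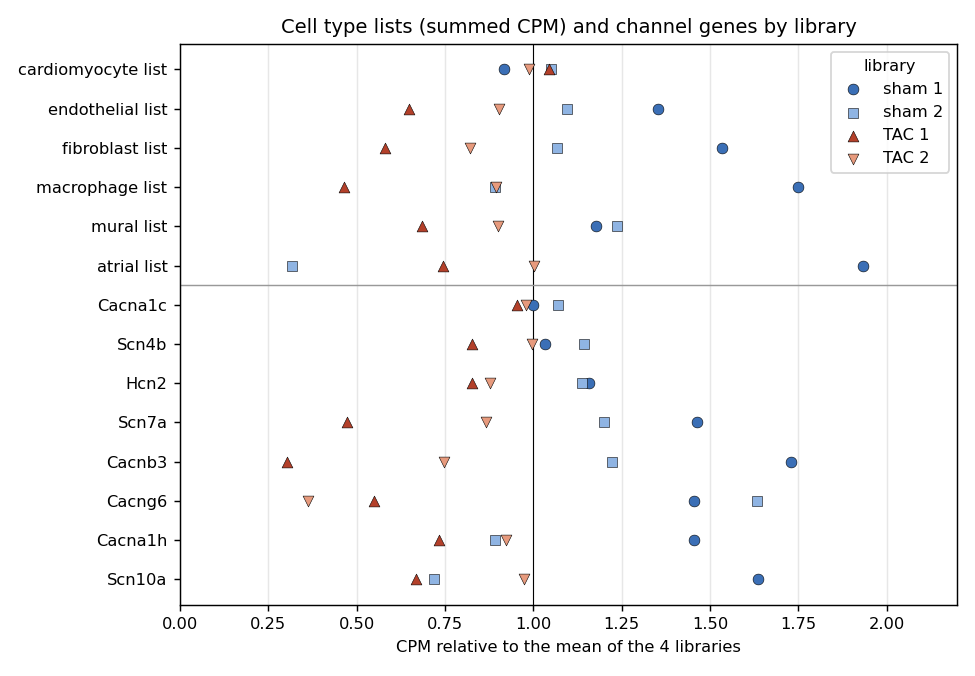
Summed CPM of cell type marker lists (above the line) and CPM of 8 channel genes (below it), each divided by its mean over the 4 libraries. Sham 1 is the highest library for the fibroblast, endothelial, macrophage and atrial lists and for Hcn2, Scn7a, Cacnb3, Cacna1h and Scn10a, and sham 2 is the highest for the mural and cardiomyocyte lists and for Cacna1c, Scn4b and Cacng6.

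The markers of other cell types were given beside these results as a whole. All 10 genes of each of the endothelial, fibroblast, macrophage and mural lists had a log2 fold change below 0, with 3, 4, 0 and 2 genes called lower, respectively. The medians were -0.62, -0.86, -0.92 and -0.78, and single genes ranged from -0.93 to -0.45, -1.23 to -0.40, -1.36 to -0.67 and -1.30 to -0.09. Of the 22 channel genes tested, only Cacng6 at -1.73 ± 0.37 and Cacnb3 at -1.51 ± 0.52 lay below all genes of these lists. Both rest on few counts, and the value was -0.98 for Cacnb3 without TAC 1 and -1.48 for Cacng6 without TAC 2. How much of any channel gene's RNA came from such cells was not tested.

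A further list held genes whose products bind, anchor or regulate these channels, and genes of calcium handling such as Casq2, Ryr2 and Pln. It held no channel gene by the symbol rule given above, and its genes are termed partners or regulators here. Of 92 genes listed, 90 were in the files, 81 were tested and 9 were called (11.1% against 5.01% of all genes), 2 higher and 7 lower. The median log2 fold change was -0.12, with 27 above and 54 below 0. By role, 2 of 23 sodium channel partners, 4 of 27 calcium channel partners, 0 of 8 pacemaker channel partners and 3 of 23 transcriptional or splicing regulators were called.

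Both called sodium channel partners were lower in TAC. Dsg2, a desmosomal cadherin of the intercalated disc, was at 112 and 122 CPM in sham and at 68 and 79.5 CPM in TAC (log2 fold change -0.67 ± 0.10, edgeR adjusted p = 0.0149). Nedd4l, a ubiquitin ligase that binds sodium channels, was at 26.9 and 27.5 CPM in sham and at 20 and 19.5 CPM in TAC (-0.46 ± 0.09, adjusted p = 0.0385). At the threshold of 0.05, Dsg2 passed under all 12 alternative settings of scaling, filter, block, libraries and tool, and Nedd4l under 8 of 12. These 12 include a block with crossed replicate numbers that was added after the data were seen.

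The called calcium channel partners went both ways. Ahnak, a scaffold that binds the calcium channel beta subunit, was at 254 and 274 CPM in sham and at 139 and 166 CPM in TAC (log2 fold change -0.79 ± 0.10, edgeR adjusted p = 0.00937). Akap5, which anchors protein kinase A near L-type channels, was at 3.73 and 3.23 CPM in sham and at 1.11 and 1.68 CPM in TAC (-1.33 ± 0.29, adjusted p = 0.046). Higher in TAC were Sorbs2, a scaffold of the Z-disc and intercalated disc, at 376 and 380 against 638 and 614 CPM (0.73 ± 0.07, adjusted p = 0.00492), and Casq2, the calcium buffer of the sarcoplasmic reticulum, at 1060 and 1150 against 1460 and 1430 CPM (0.39 ± 0.08, adjusted p = 0.0455). By total counts Casq2 was at 0.20 (adjusted p = 0.337) and by limma on FPKM at 0.20 (adjusted p = 0.359), so that its difference depends on the scaling. Casq2 passed under 5 of 12 alternative settings, Akap5 under 7 of 11, and Ahnak and Sorbs2 each under 11 of 12, the exception being limma on FPKM (adjusted p = 0.0511 for Ahnak and 0.112 for Sorbs2).

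All 3 called regulators were lower in TAC. Tbx5, a T-box factor that drives conduction and working myocyte genes, was at 18.1 and 17.9 CPM in sham and at 7.96 and 11.5 CPM in TAC (log2 fold change -0.89 ± 0.17, edgeR adjusted p = 0.0348). Irx3, a homeobox factor of the ventricular conduction system, was at 26.5 and 25.4 against 16.7 and 17.6 CPM (-0.60 ± 0.10, adjusted p = 0.0212). Rbfox1, a splicing regulator of muscle and brain, was at 21.1 CPM in each sham library and at 15.9 and 14 CPM in TAC (-0.49 ± 0.11, adjusted p = 0.0477). Tbx5 and Irx3 each passed under 10 of 12 alternative settings and Rbfox1 under 6 of 12.

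**Figure D5:**
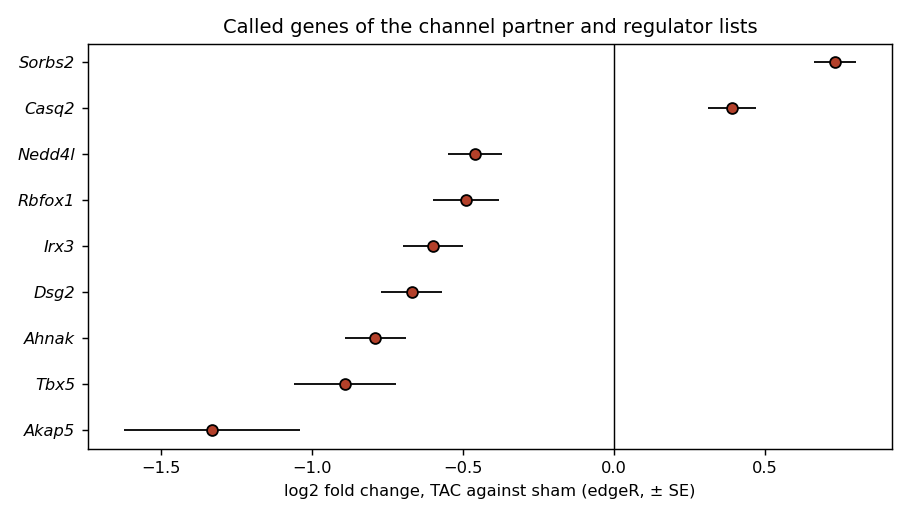
Log2 fold change, TAC against sham, with its standard error from edgeR, of the 9 called genes of the channel partner and regulator lists. Sorbs2 and Casq2 lie above 0 and the other 7 lie below, from -0.46 for Nedd4l to -1.33 for Akap5.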

How the data were processed

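RNA sequencing was done by the authors on cardiomyocytes of 2 sham and 2 TAC mice. Groups and replicate numbers came from the sample titles. The submitters' processing notes name Bowtie2 2.2.8, StringTie 1.3.1 and mm10, and no source used here gives the counting program or says whether strand was used. Per gene and library, the authors deposited FPKM and an expected count, which is estimated and can hold fractions. Depth was 24237777 to 32118323 counts. Per the study, each library came from 1 mouse, so p-values cover the spread between 2 mice a group.

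Expected counts were rounded and analysed with edgeR 4.0.16 in R 4.3.3: filterByExpr, TMM factors, glmQLFit and glmQLFTest, TAC against sham, with Benjamini-Hochberg adjustment over the 12499 genes tested. Calls had an adjusted p under 0.05, and the SE was the log2 fold change divided by the square root of F. The procedure was tested on simulated counts. Replicates of a group differed beyond counting noise (chi-square per degree of freedom 8.08 for sham and 26.71 for TAC). Of the 44 channel genes, 3 are not reported here and are left out of the counts of members. Named genes were every other tested channel gene, the remainder as a group with their counts, and every called gene of the partner list. The symbol rule that defines the members, and the gene lists, were chosen with earlier results of these data known. Alternatives were scaling by total counts, with and without mitochondrial genes, no or a stricter filter (1 CPM), other thresholds, each library left out, a replicate block, DESeq2 1.42.0, and limma 3.58.1 on log2(FPKM + 0.1). Gene positions came from GENCODE on mm10 and promoters from RefSeq on GRCm38.p6, which held 32 of the 41 channel genes reported.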

Additional observations from a re-analysis of the deposited data

How the results depend on the processing

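With 2 mice a group, single calls were sensitive to the setting. Of 356 comparisons of single genes with an alternative that gave an adjusted p, 304 kept direction and side of the threshold, 37 lost a call, 8 gained one and 7 reversed. Against 2 called channel genes, both lower, there were 0 at an adjusted p under 0.01, 1 lower by limma on FPKM, 1 lower with at least 1 CPM in all libraries, where Cacng6 was not tested, and 0 to 3 with a library left out (0 to 3 lower). For all genes, against 626, the counts were 1817 at 0.1, 92 at 0.01, 1676 with no filter, 195 by limma, and 301 to 1336 with a library left out, lowest without TAC 1 and highest without TAC 2. For the partner list, against 9, they were 20, 2, 18 and 3 in the same order, 4 to 16 with a library left out, and 15 by DESeq2. The cause of these shifts was not tested.

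The study describes its sequenced samples as coming from pairs of sham and TAC mice. The sources used here do not say that equal replicate numbers mark such a pair. Over 12499 genes the deviations of same-numbered libraries had a correlation of -0.242. This cannot decide on pairing, since the libraries also differed in their cell type markers. With the replicate block 0 channel genes were called (0 lower), with adjusted p of 0.0724 for Hcn2 and 0.0629 for Cacng6 and log2 fold changes of -0.43 and -1.75. Crossed numbers, added after the data were seen, gave 4 channel genes (4 lower), 2131 of all genes and 21 partners.

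The reversals were of genes not called, each with a library left out. The ranges over the libraries left out were -0.40 to 0.13 for Cacna2d2 and -0.99 to 0.18 for Scn10a (both reversed without sham 1), -0.10 to 0.02 for Cacna2d1 (reversed without sham 2 or TAC 1), -2.73 to 0.07 for Scn3a (without TAC 1), and -0.34 to 0.09 for Cacnb2 (0.05 without sham 2 and 0.09 without TAC 2). Shares from CPM per kilobase in place of FPKM were 86.8% (sham) and 83.9% (TAC) for Cacna1c, against 90.8% and 88.7%. Depth limits statements on genes under 5 CPM, where few counts carry a difference.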
